A study of Mus musculus with 42 samples.

Results

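The comparison set the striatum against the hippocampus of wild-type (WT) mice that had received vehicle. It held 11 of the 42 arrays of the series, chosen by the titles of the samples, with 5 arrays of WT vehicle striatum and 6 of WT vehicle hippocampus. These mice had received no PDE10 inhibitor and carry no PDE10A knockout, but they were dosed with vehicle and are untreated in that sense alone. All arrays of the series are from C57BL6 mice, and both regions were microdissected and snap-frozen before total RNA was taken. The remaining 31 arrays come from the same regions under 3 other conditions, with 6 striatal and 6 hippocampal arrays of WT mice given a PDE10 inhibitor, 5 and 5 of mice labelled as PDE10A knockouts (KO) on vehicle, and 4 and 5 of KO mice on inhibitor. The sources used here do not give age, sex, the vehicle, the part of the striatum taken or the time after dosing. No label ties an array to an animal of its own. The p-values measure how much arrays scatter within the 8 groups of the series, and that scatter may be technical. Precision is set by how few arrays each group holds.

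The striatum is the input nucleus of the basal ganglia. Most of its neurons are GABAergic projection neurons, of a direct pathway marked by the D1 dopamine receptor, substance P and dynorphin or an indirect pathway marked by the D2 dopamine receptor and enkephalin, and it also holds cholinergic and GABAergic interneurons. The hippocampus is part of the pallium. Its principal cells, the granule cells of the dentate gyrus and the pyramidal cells of fields CA1 to CA3, release glutamate, and GABAergic interneurons are a minority.

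All levels below are deposited log2 RMA signals of 1 probe set per gene, given per array for the 5 striatal arrays in the order of their numbers and as lowest, median and highest for the 6 hippocampal arrays. A difference is the striatal minus the hippocampal mean on that log2 scale with its standard error (SE), and a fold is 2 raised to its size. Levels are compared between regions for a gene and never between genes, because each probe set has its own response. The scale began at 2.55 and no call of presence was at hand, so a fold against a level near that end is a value on this scale alone. Counts of a list are set against the share of all genes called by the same rule. That share was 15.9% higher and 17.9% lower in striatum (33.9% in all), and 0.852% higher and 0.638% lower over 2-fold. The lists were chosen with earlier results of these data known. A list count thus describes these data and is not independent support.

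The 4 markers of the label went the way of the labelled regions. Rgs9, a regulator of G protein signalling of striatal projection neurons, read 11.93, 11.70, 11.99, 12.25 and 11.63 in striatum, against 7.34, 7.48 and 7.64 in hippocampus. Drd2, the D2 dopamine receptor, read 11.01, 10.76, 11.14, 11.10 and 10.64 in striatum, against 5.06, 5.5 and 6.06 in hippocampus. Penk, the enkephalin precursor, read 13.62, 13.37, 13.59, 13.71 and 13.15 in striatum, against 8.50, 8.76 and 9.64 in hippocampus. Each of these stood higher in every striatal array than in any hippocampal array. Neurod6, a transcription factor of pallial glutamatergic neurons, read 7.70, 7.91, 6.19, 3.78 and 7.96 in striatum, against 10.58, 10.70 and 10.92 in hippocampus. The groups did not overlap, but striatal arrays 1, 2 and 5 stood well above striatal array 4.

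That spread ran through the whole list of pallial glutamatergic markers, and it is given here before the results because it touches many of them. The mean of its 12 measured genes was 8.67, 8.78, 7.82, 7.18 and 8.92 in striatal arrays 1 to 5, against 10.10 to 10.30 over the hippocampal arrays. The mean of 13 markers of neocortical layers, a pallial tissue next to the striatum, was 8.09 to 8.47 in striatum and 7.5 to 7.97 in hippocampus, although that list includes Foxp2, which striatal neurons also express. Markers of thalamus averaged 7.65 and 7.86 in striatal arrays 1 and 5 and 6.54 to 6.90 in the other 3, and they averaged 8.24 in hippocampal array 6 and 6.94 to 7.10 in the other 5. Markers of the choroid plexus, led by the transthyretin gene Ttr, ranged from 6.00 to 8.48 in striatum and from 5.99 to 8.94 in hippocampus. The difference between the 3′ and the 5′ control probe sets of Gapdh, which rises as RNA is shortened, was 1.05 in striatal array 4 and 0.18 to 0.28 in the other striatal arrays, against 0.04 to 0.35 in hippocampus. Striatal array 4 was thus lowest in pallial markers and highest in this measure of RNA shortening. The part of these features in the results was not tested. The counts over all genes are given with and without the arrays that stood apart in pallial or thalamic markers. Some of the single genes whose levels followed the pallial markers are given with and without striatal arrays 1, 2 and 5. A gene given with all arrays alone, as several pallial markers are, is not thereby free of this spread. Values without these rest on striatal arrays 3 and 4 alone, and array 4 had the high Gapdh difference.

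**Figure D1:**
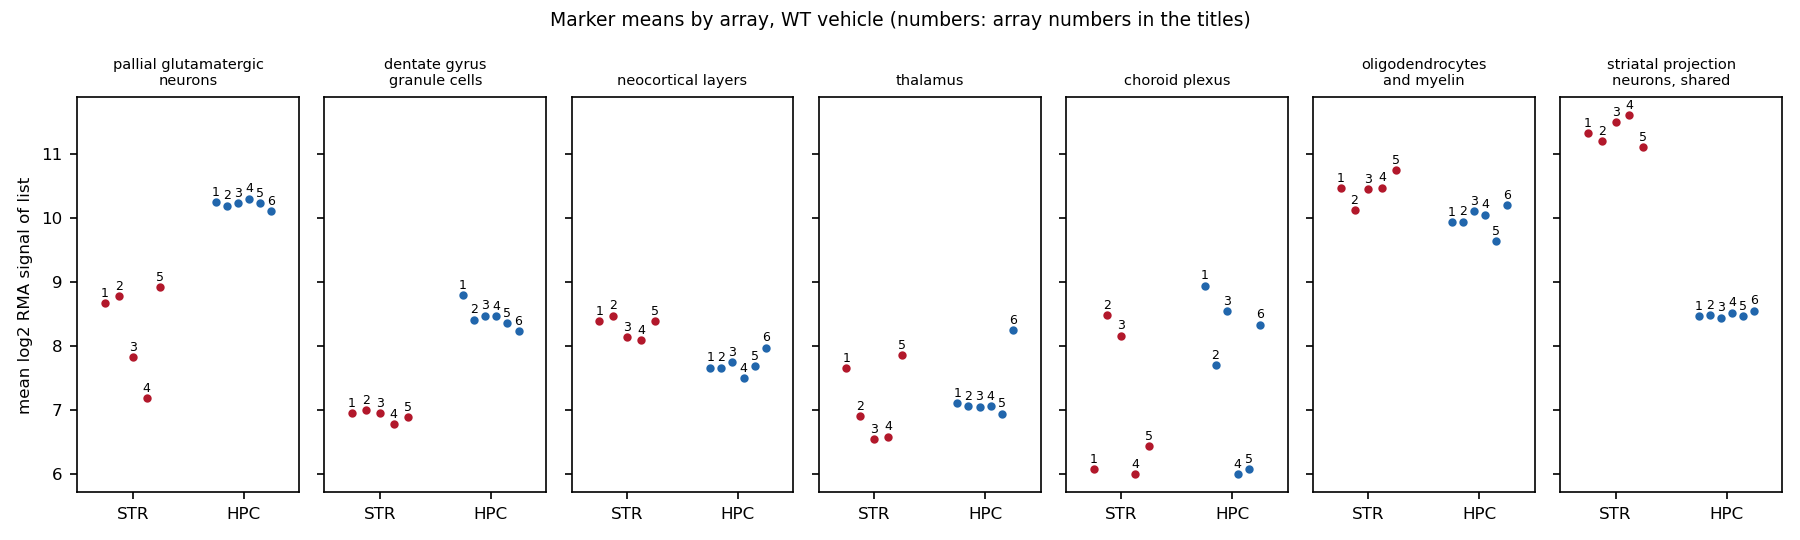
Mean log2 signal of marker lists in each array, with striatal arrays left of hippocampal arrays in each panel and 1 numbered point per array. Pallial glutamatergic markers spread from 7.18 to 8.92 over the 5 striatal arrays and stay between 10.10 and 10.30 over the 6 hippocampal arrays.

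Of 18193 genes measured, 6160 differed between the regions at an adjusted p under 0.05 (33.9% of those tested; limma, Benjamini-Hochberg). In striatum 2901 genes were higher (15.9%) and 3259 were lower (17.9%). With each array centred on its own median the split was 4017 higher and 2664 lower, so the balance of directions rests on the scaling and is not read here. The shift behind it was small, with a median difference over all genes of 0.026. A stricter rule asked whether a difference exceeded 2-fold (limma treat) and called 271 genes (1.49%), of which 155 were higher in striatum (0.852%) and 116 were lower (0.638%). In all 271 the 5 striatal and 6 hippocampal arrays did not overlap. Over all genes, 1688 had every striatal array above every hippocampal array (9.28%) and 2162 had every striatal array below (11.9%). Without striatal arrays 1, 2 and 5, which leaves striatal arrays 3 and 4, 154 genes were over 2-fold higher and 195 were over 2-fold lower. Of the 116 genes over 2-fold lower in the full set, 110 were still called by the rule they had passed, as were 141 of the 155 over 2-fold higher. Without striatal arrays 1 and 5 and hippocampal array 6, which had high thalamic markers, 5464 genes differed, 152 were over 2-fold higher and 135 over 2-fold lower.

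**Figure D2:**
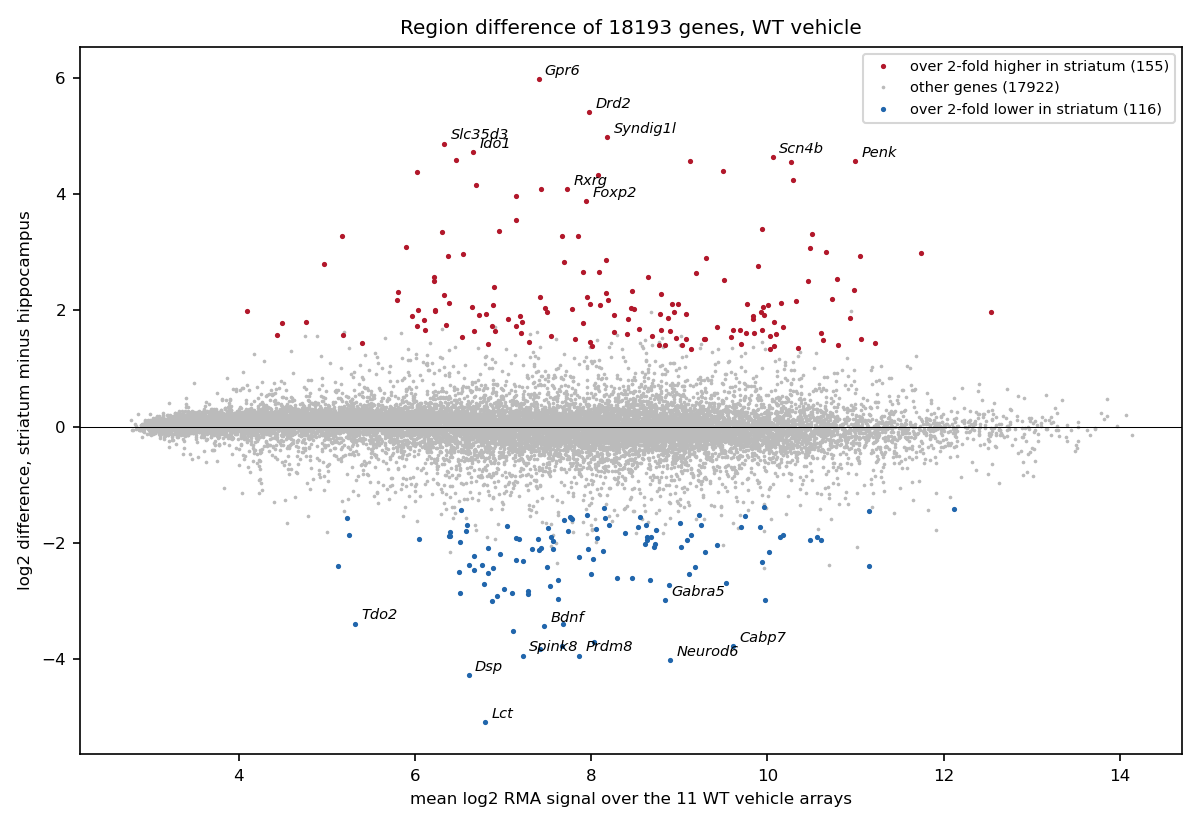
Striatum minus hippocampus log2 difference of each gene against its mean log2 signal over the 11 arrays, 1 point per gene. The 155 genes over 2-fold higher in striatum reach 5.98 (Gpr6), and the 116 over 2-fold lower reach -5.08 (Lct).

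The largest differences in favour of striatum included many genes known from its projection neurons. Gpr6, an orphan receptor of indirect pathway neurons, read 10.68, 10.42, 10.95, 11.06 and 10.21 in striatum, against 4.00, 4.80 and 5.15 in hippocampus. The hippocampal levels lie near the low end of the scale. On that scale its difference of 5.98 ± 0.28 (SE, n = 5 and 6, adjusted p = 9.81e-20) was the largest of all genes measured. Drd2 followed at 5.41 ± 0.18 (42.4-fold, adjusted p = 1.15e-24). Syndig1l, a membrane protein gene of the synapse differentiation-inducing family, differed by 4.98 ± 0.18, and Slc35d3, a transporter family member that marks direct pathway neurons, by 4.87 ± 0.15. Scn4b, a sodium channel beta subunit, read 12.46, 12.51, 12.90, 12.65 and 12.44 in striatum, against 7.5, 7.98 and 8.35 in hippocampus. Its difference was 4.64 ± 0.19. The 15 largest also held Ido1, Dmkn, Drd1, Penk, Tac1, Rgs9, Serpina9, Rasgrp2, Ppp1r1b and Nexn, which differed by 4.15 to 4.72.

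All 24 measured genes of the list shared by the projection neurons of both pathways were higher in striatum, and 21 were over 2-fold higher, against 15.9% and 0.852% of all genes. Their median difference was 2.79, against 0.026 over all genes. It was 3.02 without striatal arrays 1, 2 and 5, and 2.31 with each gene as the mean of its probe sets. Ppp1r1b encodes DARPP-32, an inhibitor of protein phosphatase 1 that is switched on by protein kinase A. It read 12.61, 12.36, 12.77, 12.86 and 12.42 in striatum, against 7.90, 8.41 and 8.79 in hippocampus, a difference of 4.24 ± 0.16. Rasgrp2, a guanine nucleotide exchange factor for Rap proteins, differed by 4.33 ± 0.17. The smallest difference of the list was that of Cacna2d3, a calcium channel auxiliary subunit, at 0.93. In bulk tissue, more cells of a type and more RNA per cell cannot be told apart.

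Markers of both pathways were higher. Of 9 measured direct pathway genes 8 were higher in striatum, 6 of them over 2-fold, against 15.9% and 0.852% of all genes. The median difference was 2.10, and 2.55 with dim genes left out, those whose mean over the 11 arrays was not above the median gene. Drd1, the D1 dopamine receptor, read 11.66, 11.40, 11.77, 11.83 and 11.41 in striatum, against 6.72, 6.79 and 7.81 in hippocampus. Tac1, the precursor of substance P, read 12.76, 12.62, 12.84, 13.03 and 12.47, against 7.93, 8.20 and 8.50. The differences were 4.58 ± 0.22 and 4.55 ± 0.15. Pdyn, the dynorphin precursor, read 8.17, 7.89, 8.18, 8.09 and 7.83 in striatum and 5.63, 5.93 and 6.26 in hippocampus. Its difference was 2.10 ± 0.16 (4.28-fold). Dentate granule cells of the hippocampus are known to make dynorphin as well. Eya1, a transcriptional coactivator, was the member that was lower in striatum (-0.74). Of 7 measured indirect pathway genes 6 were higher, 3 of them over 2-fold. The median difference was 1.37, and 2.97 with dim genes left out. That filter takes the mean over both regions, so it can keep a gene because its striatal level is high. The larger medians of both pathway lists under it are thus not read here. Grik3, a kainate receptor subunit, and Upb1, an enzyme of pyrimidine breakdown, differed by 1.37 and 1.20.

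The promoters of a direct pathway gene and an indirect pathway gene are shown because both genes lie among the largest differences and because the cAMP pathway, through the factor CREB, acts on a short motif, the cAMP response element. Each is the 250 bases before the RefSeq gene start in GRCm38.p6, on the strand of the gene, and capitals mark a match to the letters TGACGTCA or to its variant TGCGTCA on either strand. The Gpr6 window is chr10:41072291-41072540 on the minus strand, with TGACGTCA 78 to 71 bases before the start. The Tac1 window is chr6:7554811-7555060 on the plus strand, with TGCGTCA 199 to 193 bases before the start.
Gpr6: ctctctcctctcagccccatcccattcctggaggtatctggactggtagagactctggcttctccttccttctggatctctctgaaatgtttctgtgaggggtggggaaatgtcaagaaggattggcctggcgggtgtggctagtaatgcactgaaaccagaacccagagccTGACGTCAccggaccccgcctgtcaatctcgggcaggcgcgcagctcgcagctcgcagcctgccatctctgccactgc
Tac1: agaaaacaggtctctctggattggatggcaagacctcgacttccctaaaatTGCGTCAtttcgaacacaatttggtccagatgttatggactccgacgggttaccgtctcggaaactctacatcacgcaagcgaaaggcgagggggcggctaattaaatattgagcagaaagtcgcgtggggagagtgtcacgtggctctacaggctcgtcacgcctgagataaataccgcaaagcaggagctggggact
The letters TGACGTCA occurred in 508 of 32851 such RefSeq windows (1.55%) and TGCGTCA in 574 (1.75%). The letters share their last 5 bases, and no match overlapped another in the windows shown. A match of letters is a description of the sequence and does not show that a factor binds there.

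**Figure D3:**
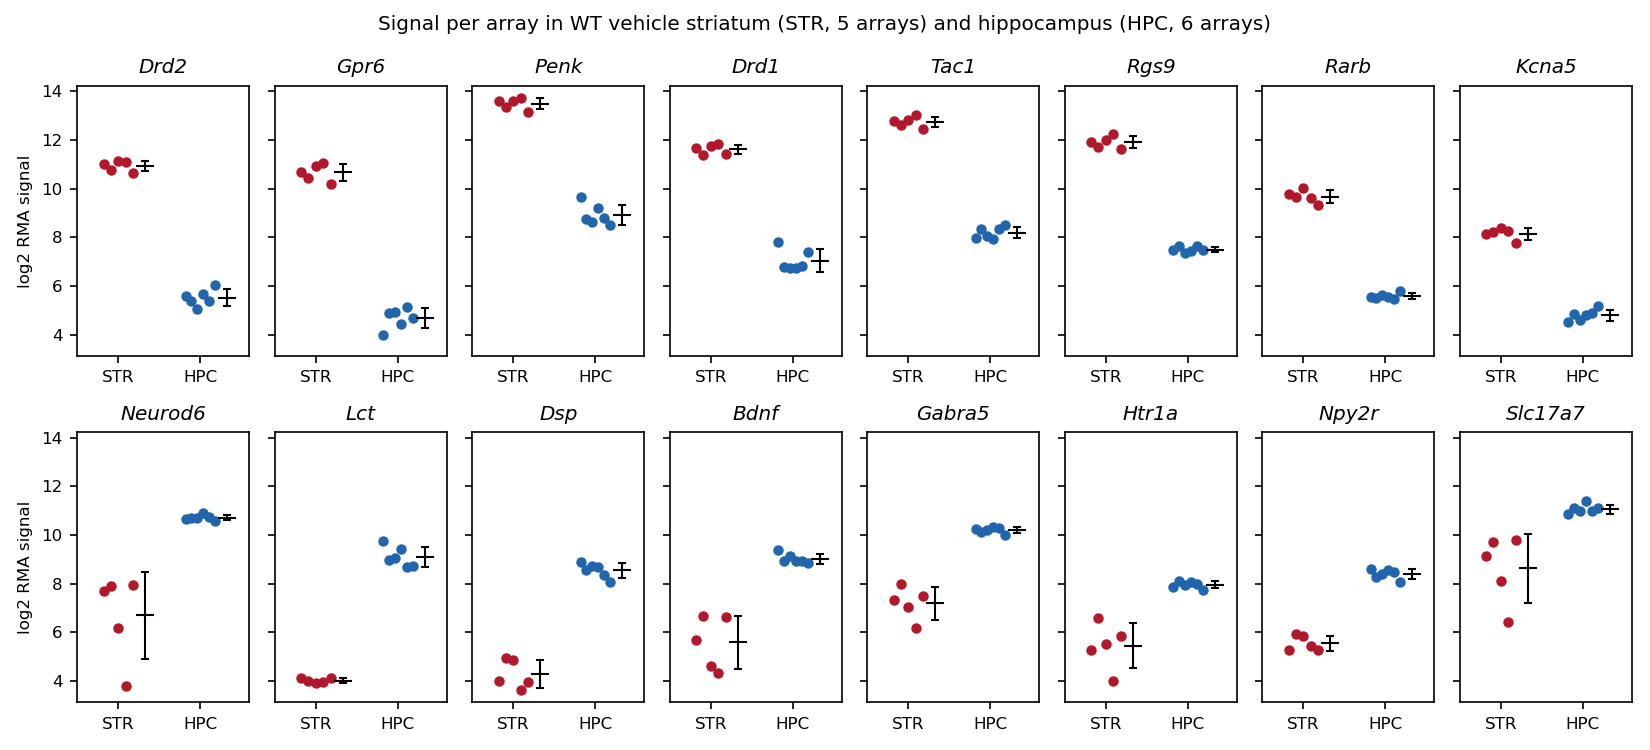
Log2 signal of single genes in each array, with the 5 striatal arrays left of the 6 hippocampal arrays in each panel, 1 point per array and the mean ± SD beside each group. Drd2 lies at 10.64 to 11.14 in striatum and 5.06 to 6.06 in hippocampus, and Lct at 3.92 to 4.13 in striatum and 8.71 to 9.75 in hippocampus.

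Markers of striatal cholinergic interneurons were in part higher. Of 8 measured genes 5 were higher in striatum (62.5%, against 15.9% of all genes) and 3 did not pass. The higher genes include Isl1, which the direct pathway list also holds. Lhx8, a homeobox factor needed for the cholinergic fate, read 6.48, 7.23, 7.37, 7.05 and 6.69 in striatum, against 3.37, 3.66 and 3.91 in hippocampus. It differed by 3.28 ± 0.17, with hippocampal levels near the low end of the scale. Ecel1, an endopeptidase-like protein, differed by 2.40, the vesicular acetylcholine transporter Slc18a3 by 0.93 and the choline transporter Slc5a7 by 0.77. Chat, which makes acetylcholine, averaged 4.83 ± 0.11 in striatum and 4.63 ± 0.10 in hippocampus (SD), low in both, and did not pass.

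Markers of GABAergic interneurons went both ways, with 3 of 15 measured genes higher in striatum, 7 lower (46.7%, against 17.9% of all genes) and 5 not past the threshold (median difference -0.34). Npy and Reln were higher, by 0.61 and 0.83. Npy encodes neuropeptide Y, and Reln the secreted protein reelin. The calretinin gene Calb2 was lower by 1.98 on average (-1.98), the receptor tyrosine kinase gene Kit by 1.16 (-1.16) and the cholecystokinin gene Cck by 2.37 (-2.37 ± 0.46, adjusted p = 8.2e-05). Cck read 10.57, 10.31, 8.66, 6.92 and 10.59 in the striatal arrays, so it was high in the arrays with high pallial markers, and its difference was -3.99 without them. Sst and Pvalb, for somatostatin and parvalbumin, differed by -0.10 and -0.34 and did not pass.

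The largest differences in favour of hippocampus included genes known from its principal cells. Lct, the lactase gene, which marks dentate granule cells in mouse brain, read 4.11, 4.00, 3.92, 3.97 and 4.13 in striatum, against 8.71, 9.02 and 9.75 in hippocampus. At -5.08 ± 0.28 (33.8-fold lower in striatum, adjusted p = 6.57e-18) it had the largest difference in this direction. Dsp, which encodes the junction protein desmoplakin, read 4.02, 4.94, 4.85, 3.63 and 3.97 in striatum, against 8.07, 8.63 and 8.89 in hippocampus. Its difference was -4.27 ± 0.54. The striatal levels of both lie near the low end of the signal scale, which began at 2.55. Neurod6 (-4.01), Spink8 (-3.94), Prdm8 (-3.94), C1ql2 (-3.83), Shisa6 (-3.78), Cabp7 (-3.77) and Pcdh20 (-3.70) came next. Tafa1, Bdnf, Neurod1, Tdo2, Smoc2 and Gabra5 completed the 15 largest, at -3.51 to -2.99.

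By field, 7 of 12 measured dentate granule cell genes were lower in striatum (58.3%, against 17.9% of all genes) and 2 were higher. Those 2 were Pdzd2, a PDZ domain protein gene (1.49), and Sema5b, a semaphorin gene (0.48). The median of the list was -1.34, and 0.01 with dim genes left out. That filter takes the mean over both regions, so it can leave out a gene because its striatal level is low. The value of 0.01 thus does not show whether the direction rests on genes of low signal. Of 9 CA1 genes 8 were lower and none higher (median -1.30, and -0.70 with each gene as the mean of its probe sets), with Fibcd1, a chitin-binding membrane protein gene, at -2.74 and Gpr161, an orphan receptor gene, at -2.88. Of 9 CA3 genes 6 were lower (median -1.19) and 1, the receptor tyrosine kinase gene Tyro3, was higher (0.81). Kctd4 and Nectin3 stood at -2.08 and -2.64. The list for the small field CA2 did not follow, with 2 of 7 lower and 3 higher (median -0.07, and 0.97 with dim genes left out). The value of 0.97 comes from the same filter and is not read here. Its higher members were Pcp4, a calmodulin-binding peptide gene (1.98), Ptpn5, for the striatum-enriched phosphatase STEP (1.90), and the calcium-binding protein gene Necab2 (0.97), all of which striatal neurons are known to express.

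Markers shared by pallial glutamatergic neurons were lower in striatum for 11 of 12 measured genes, 5 of them over 2-fold lower, against 17.9% and 0.638% of all genes. The median difference was -1.77, and -2.53 without striatal arrays 1, 2 and 5. Slc17a7, the vesicular glutamate transporter VGLUT1, read 9.15, 9.72, 8.10, 6.42 and 9.82 in striatum, against 10.85, 11.04 and 11.39 in hippocampus. Its difference of -2.43 ± 0.47 passed the plain test (adjusted p = 7.26e-05) and not the 2-fold rule (adjusted p = 0.121). Without striatal arrays 1, 2 and 5 the difference was -3.82 for Slc17a7 and -5.73 for Neurod6. The size of these differences thus depended on which striatal arrays were counted, while every striatal array was below every hippocampal array for both genes.

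**Figure D4:**
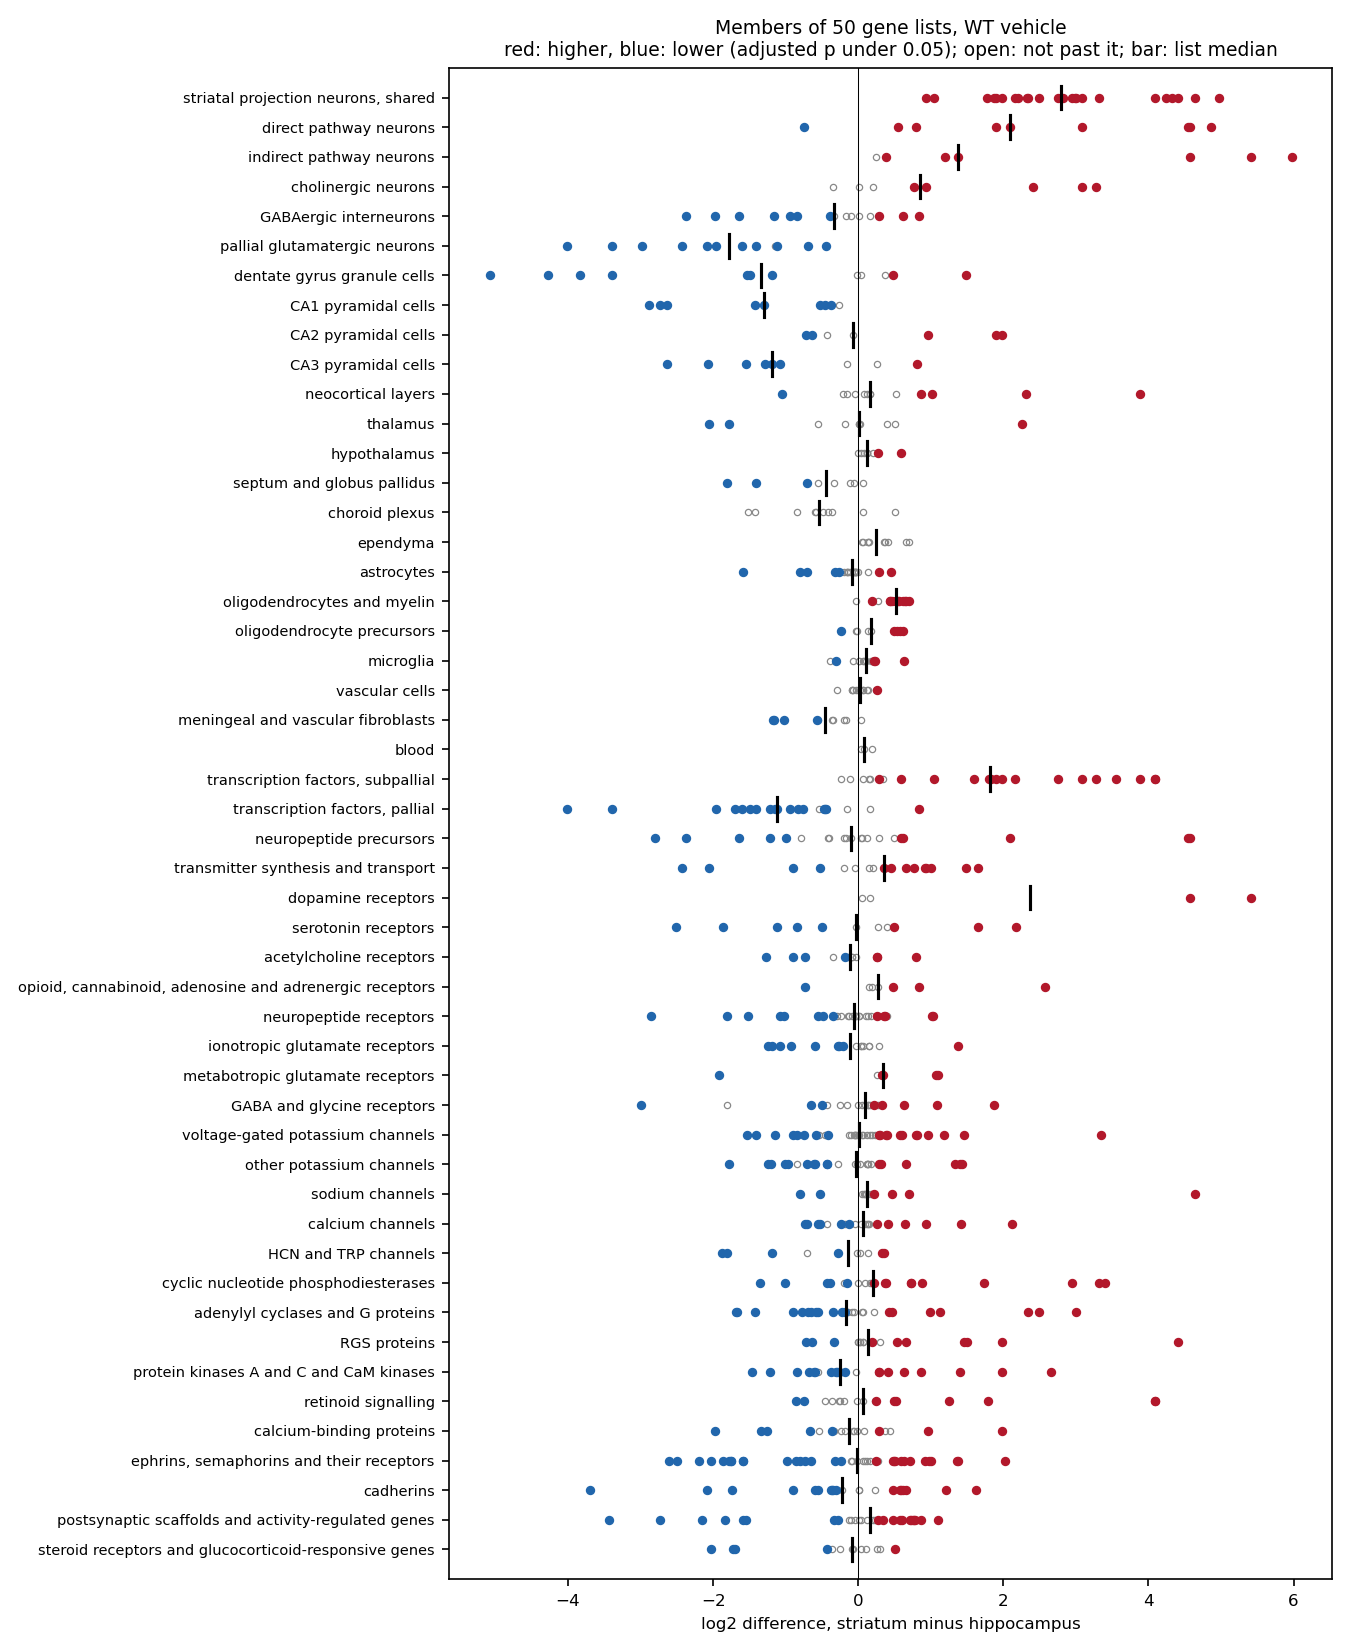
Striatum minus hippocampus log2 difference of each measured gene of the 50 lists, 1 point per gene and a bar at the median (red, higher; blue, lower; open, not past an adjusted p of 0.05). Shared projection neuron genes have a median of 2.79 and pallial glutamatergic genes of -1.77, while lists of vascular cells and thalamus lie near 0.

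Transcription factors of the embryonic territories of the regions differed in opposite directions. The subpallium is the embryonic territory that gives rise to the striatum. Of its 22 measured factors 16 were higher in striatum, 13 over 2-fold, against 15.9% and 0.852% of all genes. None was lower. The median was 1.81, and 1.5 with each gene as the mean of its probe sets. Foxp2, a forkhead factor, read 9.87, 9.87, 10.21, 10.41 and 9.94 in striatum, against 5.67, 6.24 and 6.94 in hippocampus. It differed by 3.88 ± 0.24, Six3 by 3.56 and Foxp1 by 2.15. Of 21 factors of the pallium 16 were lower in striatum, 5 over 2-fold, against 17.9% and 0.638% of all genes, and 1 was higher. Their median was -1.12, and -1.43 without striatal arrays 1, 2 and 5. Neurod1, Neurod2, Zbtb18, Lhx2 and Nfix differed by -3.39, -1.95, -1.41, -1.12 and -1.15. The higher gene was Id4 (0.84), an inhibitor of basic helix-loop-helix factors.

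Retinoid signalling had its largest differences in receptors. Retinoic acid, made from vitamin A, acts through nuclear receptors of the RAR and RXR families. Rarb, for the receptor RAR beta, read 9.78, 9.64, 10.01, 9.60 and 9.31 in striatum, against 5.47, 5.53 and 5.81 in hippocampus. The difference was 4.09 ± 0.12 (17.1-fold, adjusted p = 4.5e-26), and Rxrg, for RXR gamma, also differed by 4.09 (SE 0.17). The carrier genes Crabp1 and Rbp4 were higher as well, by 1.79 and 1.25. Cyp26b1, which breaks retinoic acid down, and Aldh1a2, which makes it, were lower in striatum (-0.75 and -0.85). In all, 7 of 17 measured genes of the pathway were higher (41.2%, against 15.9% of all genes). A further 2 were lower (11.8%, below the 17.9% of all genes) and 8 did not pass. The Rarb promoter is shown because this gene is itself known as a target of retinoic acid. The window is chr14:16575477-16575726 on the minus strand of GRCm38.p6, the 250 bases before the RefSeq start.
Rarb: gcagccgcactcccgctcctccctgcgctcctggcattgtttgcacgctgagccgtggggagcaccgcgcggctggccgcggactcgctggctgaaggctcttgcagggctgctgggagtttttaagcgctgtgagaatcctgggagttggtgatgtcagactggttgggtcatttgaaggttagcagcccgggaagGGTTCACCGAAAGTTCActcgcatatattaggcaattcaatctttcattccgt
Capitals mark a match to a retinoic acid response element, the receptor half-sites GGTTCA and AGTTCA with 5 bases of any kind between them, 53 to 37 bases before the start. On either strand this pair, so spaced, occurred in 2 of 32851 RefSeq windows (0.00609%). The match says nothing about occupancy in either region.

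The receptors for dopamine split by type. Drd1 and Drd2 were over 2-fold higher, while Drd3 averaged 3.67 in striatum and 3.62 in hippocampus, Drd4 averaged 5.10 in striatum and 4.93 in hippocampus, and neither passed at these low levels. Serotonin receptors went in both directions, with 3 of 11 measured genes higher in striatum (27.3%, against 15.9% of all genes) and 5 lower (45.5%, against 17.9%). Htr1b read 9.62, 9.36, 9.45, 9.48 and 8.96 in striatum, against 7.07, 7.14 and 7.40 in hippocampus. Htr1a read 5.30, 6.58, 5.54, 4.02 and 5.85 in striatum, against 7.75, 7.98 and 8.12 in hippocampus. These 2 receptors of the same class, both coupled to inhibitory G proteins, thus had opposite differences of 2.18 ± 0.13 and -2.51 ± 0.24. Without striatal arrays 1, 2 and 5 that of Htr1a was -3.19. Htr1d (1.66) and Htr6 (0.49) were also higher in striatum, and Htr5b (-1.87), Htr4 (-1.12), Htr3a (-0.84) and Htr7 (-0.50) were lower.

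Among other receptors for modulators, Oprk1, the kappa opioid receptor for dynorphin, read 7.41, 7.97, 7.73, 7.26 and 7.71 in striatum, against 4.72, 5.10 and 5.23 in hippocampus. It differed by 2.58 ± 0.14 (5.99-fold), while the mu and delta receptor genes Oprm1 and Oprd1 differed by 0.27 and 0.19 and did not pass. The cannabinoid receptor gene Cnr1 was higher by 0.48 and the adrenergic receptor gene Adra2c by 0.84. Of 12 acetylcholine receptor genes, 3 were higher (25.0%) and 4 lower (33.3%), against 15.9% and 17.9% of all genes. The muscarinic receptor gene Chrm4, a marker of direct pathway neurons, was higher by 0.80, and Chrm3, Chrna5 and Chrna7 were lower (-0.90, -1.27 and -0.73). Of 28 neuropeptide receptor genes 5 were higher (17.9%) and 8 lower (28.6%), the first a share near that of all genes. Npy2r, a neuropeptide Y receptor, read 5.26, 5.94, 5.84, 5.44 and 5.27 in striatum, against 8.09, 8.44 and 8.60 in hippocampus, a difference of -2.86 ± 0.28. The somatostatin receptors Sstr3 (-1.81) and Sstr4 (-1.52) were lower too, and the tachykinin receptor Tacr3 (1.02) and the melanin-concentrating hormone receptor Mchr1 (1.04) were higher in striatum.

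Among neuropeptide precursors 5 of 21 measured genes were higher in striatum and 5 were lower (23.8% each, against 15.9% and 17.9% of all genes). Besides Penk, Tac1 and Pdyn, the genes Npy and Trh (0.59) were higher. The gastrin-releasing peptide gene Grp (-2.79), Cck, the chromogranin B gene Chgb (-1.22) and Pnoc (-0.99), the nociceptin precursor, were lower. Grp varied as the pallial markers did, at 5.68, 6.78, 5.04, 3.51 and 6.41 over the striatal arrays, and its difference was -4.01 without arrays 1, 2 and 5.

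Genes that make and package transmitters differed in both directions, with those for GABA higher in striatum. Of 17 measured genes 9 were higher in striatum (52.9%, against 15.9% of all genes) and 4 were lower (23.5%, against 17.9%). Gad2, a glutamate decarboxylase that makes GABA, read 11.78, 11.25, 11.47, 11.65 and 11.04 in striatum, against 9.80, 9.91 and 10.12 in hippocampus. Its difference was 1.49 ± 0.11 (2.80-fold), that of Gad1 0.66, that of the vesicular GABA transporter Slc32a1 1.66 and that of the GABA transaminase Abat 0.92. For Gad1 and Abat no other probe set of the gene passed. The glutamate transporters Slc17a7 and Slc17a6 were lower in striatum (-2.43 and -2.05). Slc17a6, which is also on the list of thalamic markers, differed by -3.48 without striatal arrays 1, 2 and 5. That run kept hippocampal array 6, which was high in thalamic markers.

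Glutamate receptors of the ionotropic kind were mostly lower or not past the threshold, with 1 of 16 measured genes higher in striatum (Grik3) and 8 lower. The NMDA receptor subunit gene Grin2a differed by -1.24, the kainate receptor genes Grik4 and Grik1 by -1.19 and -1.07 and the AMPA receptor gene Gria1 by -0.59. Without striatal arrays 1, 2 and 5 the difference of Gria1 was -0.44 and no longer passed. Of 6 metabotropic receptors 4 were higher (66.7%, against 15.9% of all genes). They were Grm3 (1.10), Grm4 (1.08), Grm7 (0.34, and 0.53 without striatal arrays 1, 2 and 5) and Grm5 (0.33). Grm2 was the exception at 7.26, 7.25, 6.95, 6.83 and 6.83 in striatum, against 8.86, 8.94 and 9.03 in hippocampus. It differed by -1.92 ± 0.19 (3.78-fold lower), opposite to Grm3 of the same receptor group.

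GABA-A receptor subunits held differences of either sign. Gabra5, the alpha 5 subunit typical of extrasynaptic receptors in hippocampus, read 7.34, 8.0, 7.04, 6.17 and 7.5 in striatum, against 10.00, 10.23 and 10.34 in hippocampus. It differed by -2.99 ± 0.23 (7.93-fold lower, adjusted p = 2.43e-13), and by -3.59 without striatal arrays 1, 2 and 5. Gabrd, the delta subunit, was higher at 1.87 ± 0.13 (3.65-fold), as were Gabrg3 (1.09) and Gabra4 (0.63), while Gabrb1 (-0.65) and Gabra2 (-0.50) were lower. Of 19 measured subunits of GABA and glycine receptors 5 were higher (26.3%, against 15.9% of all genes), 3 were lower (15.8%, near the 17.9% of all genes) and 11 did not pass.

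**Figure D5:**
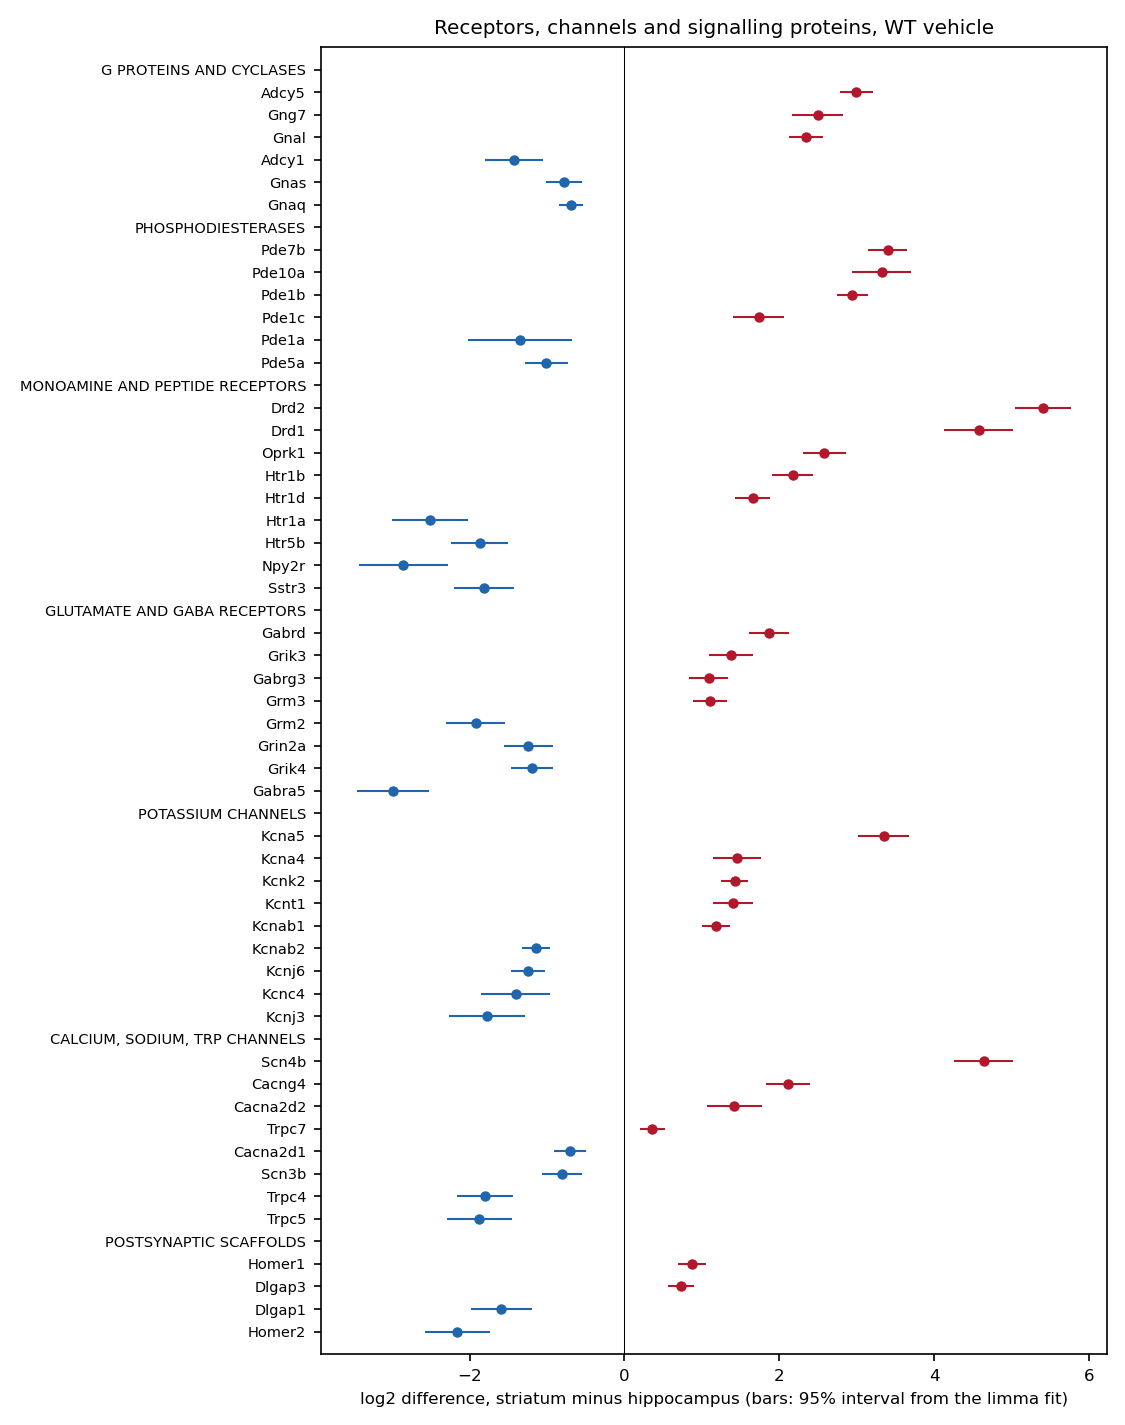
Striatum minus hippocampus log2 difference of selected members of receptor, channel and signalling families that passed the plain test, 1 point per gene with its 95% confidence interval. The families hold members on both sides of 0, such as Pde7b (3.40) and Pde1a (-1.35) or Htr1b (2.18) and Htr1a (-2.51).

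Of 39 voltage-gated potassium channel genes 12 were higher in striatum (30.8%, against 15.9% of all genes), 8 were lower (20.5%, near the 17.9% of all genes) and 19 did not pass, and 1 was over 2-fold (2.56%, near the 1.49% of all genes). Kcna5 read 8.12, 8.20, 8.39, 8.24 and 7.75 in striatum, against 4.51, 4.81 and 5.16 in hippocampus, a difference of 3.35 ± 0.16 (10.2-fold). Kcna4, of the same family, differed by 1.46. The auxiliary beta subunits took opposite directions, Kcnab1 with 1.18 and Kcnab2 with -1.14. Of 26 other potassium channel genes 6 were higher (23.1%) and 10 lower (38.5%), against 15.9% and 17.9% of all genes. Kcnk2, Kcnt1 and Kcnj4 were higher, by 1.43, 1.41 and 1.33. The lower genes included Kcnj3 and Kcnj6, which form G protein-gated channels, at -1.77 and -1.25, and Kcnn2 at -1.20.

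Among 12 sodium channel genes Scn4b stood alone over 2-fold (8.33%, against 1.49% of all genes). Scn3a (0.70) and Scn2b (0.46) were higher as well, and Scn3b (-0.81) and Scn8a (-0.52) were lower. Of 20 calcium channel genes 6 were higher and 6 lower (30.0% each, against 15.9% and 17.9% of all genes). Cacng4, an auxiliary subunit of AMPA receptors, read 9.85, 9.99, 10.20, 10.57 and 9.72 in striatum, against 7.77, 7.86 and 8.22 in hippocampus, a difference of 2.12 ± 0.14. The alpha2delta subunits split, with Cacna2d2 (1.42) and Cacna2d3 (0.93) higher and Cacna2d1 (-0.70) lower. Of the TRP channels, Trpc5 read 4.91, 5.79, 5.61, 4.83 and 5.75 in striatum, against 6.91, 7.20 and 7.64 in hippocampus. It differed by -1.87 ± 0.21, Trpc4 by -1.80, Trpc6 by -1.19 and Trpc7 by 0.36.

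The cAMP pathway differed in its isoforms. Golf, built from Gnal with Gng7, couples the D1 receptor and an adenosine receptor of striatal neurons to the adenylyl cyclase Adcy5. Adcy5 read 12.22, 12.23, 12.49, 12.48 and 12.06 in striatum, against 9.23, 9.29 and 9.39 in hippocampus. It differed by 3.00 ± 0.10 (7.98-fold), Gng7 by 2.5 and Gnal by 2.35. Adcy1, a calmodulin-stimulated cyclase, read 11.54, 11.13, 10.54, 10.36 and 11.64 in striatum, against 12.33, 12.46 and 12.63 in hippocampus. It differed by -1.43 ± 0.19, and by -2.02 without striatal arrays 1, 2 and 5. The cyclases Adcy9 (-0.65) and Adcy6 (-0.58) and the G protein subunits Gnas (-0.78) and Gnaq (-0.69) were lower in striatum. Of 26 measured cyclases and G proteins 7 were higher, 12 were lower and 7 did not pass. Shares of 26.9% higher and 46.2% lower stand against 15.9% and 17.9% of all genes.

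Phosphodiesterases, which break cyclic nucleotides down, were higher in striatum for 10 of 20 measured genes, 4 of them over 2-fold, and lower for 5. Pde10a, the target of the inhibitor used elsewhere in the series, read 12.19, 12.15, 12.56, 12.65 and 12.06 in striatum, against 8.94, 9.02 and 9.04 in hippocampus. It differed by 3.32 ± 0.19 (9.98-fold), close to Pde7b at 3.40 ± 0.12 and Pde1b at 2.94 ± 0.10. Pde1c read 7.99, 7.80, 7.97, 8.10 and 7.25 in striatum, against 5.67, 6.18 and 6.52 in hippocampus, and differed by 1.73 ± 0.16. Pde1a, of the same calmodulin-dependent family as Pde1b and Pde1c, went the other way at -1.35 (-2.20 without striatal arrays 1, 2 and 5), as did the cGMP-specific Pde5a at -1.01.

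Kinases and RGS proteins of these pathways also differed by isoform. Of 23 genes of protein kinases A and C and of calmodulin-dependent kinases 8 were higher and 11 were lower. These shares, 34.8% and 47.8%, compare with 15.9% and 17.9% of all genes. Prkch, protein kinase C eta, differed by 2.66, the regulatory subunit gene Prkar2b of protein kinase A by 1.98 and Camk4 by 1.41. Prkca (-1.22), Camk2a (-0.60) and the inhibitor gene Pkib (-1.46) were lower. Of 18 RGS genes 7 were higher (38.9%, against 15.9% of all genes) and 3 lower (16.7%, near the 17.9% of all genes). Rgs4, Rgs20 and Rgs2 stood at 1.99, 1.5 and 1.46 beside Rgs9.

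Postsynaptic scaffolds and activity-regulated genes held a contrast within the Homer family, which ties metabotropic receptors to calcium stores. Homer1 read 11.46, 11.37, 11.50, 11.38 and 11.22 in striatum, against 10.23, 10.56 and 10.63 in hippocampus. Homer2 read 8.36, 8.76, 7.55, 7.45 and 8.42 in striatum, against 10.22, 10.24 and 10.36 in hippocampus. Their differences were 0.87 ± 0.09 and -2.16 ± 0.21 (-2.77 without striatal arrays 1, 2 and 5), and Homer3 stood at -1.54. Bdnf, the brain-derived neurotrophic factor that striatal cells largely receive from cortical axons, read 5.70, 6.69, 4.64, 4.33 and 6.63 in striatum, against 8.84, 8.93 and 9.40 in hippocampus. It differed by -3.43 ± 0.39 (10.8-fold lower), and by -4.54 without striatal arrays 1, 2 and 5. The orphan nuclear receptor gene Nr4a3 (-2.73) and the scaffold gene Dlgap1 (-1.59) were lower, and the scaffold genes Dlgap3 (0.73) and Dlg2 (0.58) were higher in striatum.

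Guidance molecules, which persist at adult synapses, were divided. Of 39 ephrin, semaphorin, slit and netrin genes and their receptors, 13 were higher in striatum and 17 lower, 7 of these over 2-fold. The shares of 33.3% and 43.6% stand against 15.9% and 17.9% of all genes, of which 0.638% were over 2-fold lower. Sema3a (2.02), Plxnd1 (1.37), Efnb2 (1.36) and Ephb1 (0.92) were higher. Slit1 (-2.61), the ephrin receptor genes Epha3 (-2.5) and Epha6 (-2.19) and the semaphorin receptor genes Nrp1 (-2.03) and Plxna1 (-1.75) were lower. Of 21 cadherins 7 were higher (33.3%, against 15.9% of all genes), led by Pcdh11x (1.63) and Cdh13 (1.21). A further 10 were lower (47.6%, against 17.9%), led by Pcdh20 (-3.70) and Pcdh19 (-2.08).

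Corticosteroid signalling differed at the mineralocorticoid receptor. Nr3c2, which encodes it, read 8.40, 8.38, 8.26, 8.48 and 8.10 in striatum, against 9.87, 10.02 and 10.21 in hippocampus, a difference of -1.70 ± 0.17 (3.24-fold lower). The glucocorticoid receptor gene Nr3c1 differed by -0.07 and did not pass. Hsd11b1, which regenerates active glucocorticoid, and Zbtb16 were lower in striatum, at -1.72 and -2.02. Of 13 genes of this list 1 was higher (7.69%, below the 15.9% of all genes) and 4 were lower (30.8%, against 17.9%). The other 8 did not pass, and the share called, 38.5%, was near the 33.9% of all genes.

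Of 58 genes of the astrocyte, oligodendrocyte, oligodendrocyte precursor and microglial lists 28 differed by the plain rule (48.3%, against 33.9% of all genes), and none over 2-fold by the treat rule, which called 1.49% of all genes. Of 14 measured oligodendrocyte and myelin genes 12 were higher in striatum (85.7%, against 15.9% of all genes), with a median difference of 0.52. Ugt8a (0.70, but 0.21 with each gene as the mean of its probe sets, adjusted p = 0.366, limma), Mag (0.61), Cnp (0.52) and Mobp (0.65) were among them. In 2 of the 14 every striatal array lay above every hippocampal array, and in the others the groups overlapped (9.28% of all genes had striatum above). Of 20 astrocyte genes 13 did not pass, 2 were higher and 5 were lower in striatum (median -0.09). The share called, 35.0%, was near the 33.9% of all genes. The lower genes included Gfap, an intermediate filament gene, at 9.60, 8.57, 8.50, 9.77 and 9.43 in striatum, against 9.97, 10.51 and 12.55 in hippocampus. Its difference was -1.59 ± 0.29, and hippocampal array 1 stood far above the rest. Aqp4, the water channel of astrocyte end feet, differed by -0.80 and Gjb6, a connexin gene, by -0.71. The microglial list had 3 of 15 genes higher and 1 lower (26.7%, below the 33.9% of all genes). In the vascular list 1 of 13 was higher (7.69%, below the 15.9% of all genes). Fibroblast genes were lower for 4 of 10 (40.0%, against 17.9% of all genes), among them Lum (-1.18) and Ogn (-1.02). No choroid plexus or ependymal gene out of 10 each passed.

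The region differences in WT vehicle mice were set beside those in the other 3 conditions, which use separate arrays. Across all genes measured they correlated with the mean of the 3 others at r = 0.955, a description over genes that are not independent. Of the 2901 genes higher in striatum, 2545 (87.7%) had the same sign in all 3 other conditions, as had 3093 of the 3259 lower genes (94.9%). All 155 and all 116 genes past the 2-fold rule kept their sign there. The Rgs9 difference was 4.40 in WT vehicle, 4.29 ± 0.12 in WT inhibitor, 3.97 ± 0.13 in KO vehicle and 3.94 ± 0.14 in KO inhibitor mice. Pde10a differed by 2.88 ± 0.19 in KO vehicle and 2.73 ± 0.21 in KO inhibitor mice, on 1 of its 5 probe sets. This region difference thus does not mark the knockout, and it cannot show whether the level fell in both regions. Statements on KO arrays rest on the labels. Which part of the gene was removed is not stated in those sources.

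A test of the difference between the WT vehicle region difference and the mean of the others called 28 genes (0.154%), against 1261 at an unadjusted p under 0.05 (6.93%). In 27 of the 28 the striatal mean moved more than the hippocampal mean. The count was 16 without striatal array 4, 55 without striatal arrays 1, 2 and 5, 20 without the arrays with high thalamic markers, 58 with array weights and 17 with dim genes left out, so it moved by over 1.5 times either way. Pdyn differed by 2.10 between regions in WT vehicle mice, against 2.69, 3.42 and 3.25 in WT inhibitor, KO vehicle and KO inhibitor mice (interaction -1.03 ± 0.18, adjusted p = 0.00391). Pde1c differed by 1.73, against 2.93, 2.74 and 2.55, and Gnb4, a G protein beta subunit gene, by 1.13, against 1.65, 2.14 and 2.21. Clspn, which encodes the checkpoint protein claspin, ran the other way. It read 6.80, 7.65, 7.75, 7.22 and 7.20 in WT vehicle striatum, against 5.14, 5.32 and 5.52 in WT vehicle hippocampus. Its difference of 2.00 ± 0.17 compared with 0.71, 0.89 and 0.87 in the other conditions (interaction 1.18 ± 0.20, adjusted p = 0.00219). Slc7a8, an amino acid transporter gene, was lower in striatum in WT vehicle mice (-0.33 ± 0.09) and had positive differences of 0.33, 0.39 and 0.50 elsewhere (adjusted p of the interaction 0.000208).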

How the data were processed

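The deposited table gives log2 signals of 45101 Affymetrix probe sets on 42 arrays. Per the submitters' processing notes, the authors used RMA. This method corrects background, equalises quantiles across arrays and summarises probes on the log2 scale, which compresses differences of dim genes. Values ran from 2.55 to 15.12 and array medians from 6.05 to 6.12, with no centring of genes seen. Scanner files were not used here, so there are no detection calls and no other background correction. Of the probe sets, 64 were controls, 34945 had a single gene, 932 had several and 9160 had none, by the platform annotation. Symbols were updated through RefSeq (GRCm38.p6) for 34741. Each of 18193 genes took its probe set with the highest mean over all arrays, and 9010 genes had more than 1.

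Differences came from a linear model of limma 3.58.1 (R 4.3.3) with moderated, two-sided tests over all 42 arrays in 8 groups. Benjamini-Hochberg adjustment ran over 18193 genes at a threshold of 0.05, and treat used a log2 difference of 1. The fit was tested on simulated data. The interaction contrast set the WT vehicle region difference against the mean of the 3 others. Genes named are the label markers, the 15 largest differences in each direction past the 2-fold rule without overlap (no clone or predicted name had to be passed over), up to 5 members of each list in each direction with the smallest p, and any member of a receptor or channel family. Further genes given with values in every array, and Chat, Sst and Pvalb, were chosen after their values were seen. The 50 lists hold 853 entries, of which 770 were measured, and the others are not analysed here. Members and lists were chosen with earlier results of these data known. Promoter windows come from RefSeq (GRCm38.p6), which held all 3 genes looked up. Replicate numbers were not used to pair samples: the deviations of striatal and hippocampal arrays with the same number correlated at -0.131 to 0.178.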

Additional observations from a re-analysis of the deposited data

Results flagged for a closer look

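In 12 of 186 groups of values examined 1 array stood apart from the rest of its group, where chance gives about 1 in 20. In striatum, array 4 had a Gapdh 3′ minus 5′ difference of 1.05 and the lowest microglial marker mean (8.23), and array 5 had the lowest mean of sodium channels (8.55). In hippocampus, array 1 had the highest Gfap signal (12.55), the lowest Homer1 signal (10.23) and the lowest mean of neuropeptide receptors (6.23), with the highest means of CA3 genes (8.68) and of HCN and TRP channels (7.72). Hippocampal array 6 had the highest mean of thalamic markers (8.24), with Tcf7l2, a thalamic transcription factor gene, at 7.80, and the highest mean of transmitter genes (7.78). Hippocampal array 4 had the highest mean of ionotropic glutamate receptors (8.63).

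For 6 genes shown in the text the region difference in WT vehicle mice departed from the mean of the other 3 conditions. The departure, in log2 units, was 1.18 for Clspn, -0.87 for Gnb4, -1.01 for Pde1c, -1.03 for Pdyn and -0.74 for Slc7a8. It was -0.97 for Nnat, the neuronatin gene, which read 9.30, 10.26, 10.22, 9.37 and 9.47 in WT vehicle striatum, against 9.74, 10.42 and 10.64 in hippocampus, where the groups overlapped.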

How the results depend on the processing

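In all, 23 alternatives were run, 2 of them added after the data had been seen. Among 294 named genes, 289 passed the plain rule, and 255 did so with the same sign under every alternative. Cx3cr1 changed sign to -0.08 (adjusted p = 0.606) when a gene was the mean of its probe sets. Of 50 list medians 27 stayed within the array spread under every alternative and 23 moved past it under at least 1, 13 of them with dim genes left out. The median of the dentate list became 0.01 when genes dim over the 11 arrays were left out, its own dim members included. With dim genes left out 1868 genes were higher in striatum and the interaction called 17. The interaction called 58 genes with array weights and 55 without striatal arrays 1, 2 and 5, and 195 genes were then over 2-fold lower. Leaving out each array in turn gave 4837 to 6754 differing genes, 228 to 293 over 2-fold and 16 to 34 for the interaction, lowest each time without striatal array 4. With the replicate number as a fixed block in the 2 groups, 4646 genes differed and 253 did so over 2-fold. As a random block (consensus correlation 0.004) the counts were 6179 and 272, and neither block moved a count by over 1.5 times.

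Of 177 named genes with several probe sets, another probe set of Cacng8 passed in the opposite direction. For 34 no other probe set passed, among them Tac1, Gabrd, Gad1, Grik3, Gnas, Pde1a, Sstr3 and Gpr161. Abat, Cnr1, Htr4, Chrna7, Scn3a, Tle4, Bcas1 and Sema5b were among them too. Slide and scan batches were not analysed here.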

Other observations

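The first step of tryptophan breakdown to kynurenine can be catalysed by either of a pair of enzymes, and their genes differed in opposite directions. Ido1, for indoleamine dioxygenase, read 8.98, 9.25, 9.57, 9.34 and 9.05 in striatum, against 4.22, 4.54 and 4.78 (lowest, median and highest) in hippocampus. Its difference was 4.72 ± 0.17 (26.4-fold, adjusted p = 5.68e-24, limma). Tdo2, for tryptophan dioxygenase, read 3.73, 3.48, 3.28, 3.33 and 3.53 in striatum, against 6.59, 6.86 and 7.12 in hippocampus. Its difference was -3.39 ± 0.37 (10.5-fold lower, adjusted p = 1.21e-09). The groups overlapped for neither gene, and no call of presence was at hand for the low levels of either.

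Genes of calcium-binding proteins had 3 of 18 measured members higher in striatum (16.7%, near the 15.9% of all genes) and 5 lower (27.8%, against 17.9%). Vsnl1 and Ncald, for visinin-like and neurocalcin proteins, stood at -1.26 and -1.34, and at -2.06 and -2.08 without striatal arrays 1, 2 and 5. Oligodendrocyte precursor genes had 4 of 9 higher (44.4%, against 15.9% of all genes) and 1 lower (11.1%, below 17.9%). Lhfpl3 stood at 0.61, Bcas1 at 0.57 and Sox10 at 0.49. Of HCN and TRP channels 2 of 10 were higher and 4 lower (60.0% called, against 33.9% of all genes).

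Of the lists of neighbouring tissue, those of neocortex, thalamus and septum with globus pallidus had shares called of 38.5%, 30.0% and 37.5%, near the 33.9% of all genes, and that of hypothalamus 22.2%. Of 13 neocortical genes 4 were higher in striatum, Foxp2, Rspo1 (2.31), Lamp5 (1.01) and Tle4 (0.87), and Rasgrf2 was lower (-1.04, and -1.81 without striatal arrays 1, 2 and 5). Of 10 thalamic genes Synpo2 was higher (2.26), and Slc17a6 (-2.05) and Ntng1 (-1.78) were lower. Of 9 hypothalamic genes 2 were higher and of 8 genes of septum and globus pallidus 3 were lower, while none of 3 blood genes passed.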
